A study of Mus musculus with 12 samples.

Results

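The genes described here are 10 genes of T cells and cytotoxic lymphocytes among the 34348 genes of the deposited expression table, chosen by symbol. Cd3e, Cd3d and Cd3g encode the CD3 chains, Cd4, Cd8a and Cd8b1 the coreceptors, Gzma, Gzmb and Nkg7 proteins of cytotoxic granules, and Itgae an integrin of lymphocytes that live in epithelia. All 10 were found and had reads in each of the 12 libraries. Total RNA of small intestine and of liver from C57BL/6 mice was sequenced in 4 groups with 3 libraries each. In each tissue, one group had received phosphate-buffered saline (PBS) and the other LCWE, known in this field as the Lactobacillus casei cell wall extract that causes coronary vasculitis in mice and serves to model Kawasaki disease. The labels do not spell out LCWE, and they give no age, sex, dose or time. Column names of the authors' comparison table read LCWECFA for the treated animals, with CFA not spelled out, so "LCWE" below stands for whatever these groups received. In each tissue the PBS libraries are numbered 2, 3 and 4 by the labels and the LCWE libraries 1, 2 and 4, and values below keep that order. Nothing in the labels says that each library is its own animal, so the p-values rest on a spread between samples that may be technical.

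T cells recognise antigen through a receptor whose signal is carried by the CD3 chains, so the CD3 genes mark T cells of nearly every kind. CD4 is the coreceptor of helper T cells, and CD8 that of cytotoxic T cells, either as a heterodimer of the alpha and beta chains or as a homodimer of alpha chains, a form carried by many intraepithelial lymphocytes. These lymphocytes sit between the enterocytes, are held there by the integrin alpha E beta 7 through E-cadherin, and store granzymes that kill target cells. Several of the genes are not restricted to T cells: natural killer cells contain granzymes and NKG7, and some dendritic cells of the mouse carry CD4, CD8 alpha or the alpha E integrin.

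The expression values are RPKM, in which the reads of a gene are divided by its length in kilobases and by the size of the library, a scale on which genes of different length can be compared. Between 30294594 and 44921885 reads were assigned to genes per library. Alb, the albumin gene of hepatocytes, stood between 10519 and 23555 RPKM in the liver libraries and between 51.6 and 145 RPKM in the intestinal ones. The highest of the intestinal libraries was LCWE replicate 4, and no other exceeded 60.2 RPKM. Fabp2, the fatty acid binding protein of enterocytes, stood at 9408, 9206 and 5747 RPKM in the intestinal PBS libraries and at 3350, 2656 and 676 RPKM in the intestinal LCWE libraries. The 2 intestinal groups thus did not overlap in this enterocyte marker. Of the other enterocyte markers read here, Alpi, Lct, Apoa4 and Rbp2 did not overlap either, while Vil1, Epcam, Lgals4, Sis and Krt20 did. In RNA of whole tissue, fewer cells of a type and less RNA per cell cannot be told apart.

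The 3 CD3 genes lie next to each other on chromosome 9 of mm10. Cd3g occupies 44969572 to 44980431 on the minus strand, Cd3d 44981786 to 44987339 on the plus strand and Cd3e 44998740 to 45009627 on the minus strand. The starts of Cd3g and Cd3d face away from each other and are 1355 bases apart. Cd8b1 (71322788 to 71337494) and Cd8a (71373427 to 71379173) are neighbours on the plus strand of chromosome 6, with 35932 bases between them. The other 5 genes are Cd4 on chromosome 6 (124864692 to 124888221, minus strand), Gzma on chromosome 13 (113093825 to 113100979, minus strand), Gzmb on chromosome 14 (56258856 to 56262260, minus strand), Nkg7 on chromosome 7 (43437073 to 43438249, plus strand) and Itgae on chromosome 11 (73090583 to 73147446, plus strand). All 10 are protein coding in the GENCODE M21 annotation, and values are per whole gene, over its exons.

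Promoter sequences of RefSeq (GRCm38.p6, the assembly that mm10 names) were matched for 7 of the 10 genes, which leaves out Cd4, Cd8b1 and Itgae. Those of the neighbours Cd3g and Cd3d and of the granzymes Gzma and Gzmb are shown, and those of Cd3e, Cd8a and Nkg7 are not. Each is the 250 bases before the RefSeq start, 5′ to 3′ on the strand of the gene. The windows are chr9:44980432-44980681 on the minus strand for Cd3g, chr9:44981536-44981785 on the plus strand for Cd3d, chr13:113100982-113101231 on the minus strand for Gzma and chr14:56262335-56262584 on the minus strand for Gzmb. Capitals mark the core motif of RUNX factors (TGTGGT), the E-box (CAGNTG) and the short core of cAMP response elements (TGACGT), each searched on both strands.
Cd3g: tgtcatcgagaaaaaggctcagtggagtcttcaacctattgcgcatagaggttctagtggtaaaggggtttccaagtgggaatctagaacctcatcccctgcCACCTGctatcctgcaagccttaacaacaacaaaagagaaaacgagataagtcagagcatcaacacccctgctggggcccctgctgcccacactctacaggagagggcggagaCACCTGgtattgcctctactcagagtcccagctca
Cd3d: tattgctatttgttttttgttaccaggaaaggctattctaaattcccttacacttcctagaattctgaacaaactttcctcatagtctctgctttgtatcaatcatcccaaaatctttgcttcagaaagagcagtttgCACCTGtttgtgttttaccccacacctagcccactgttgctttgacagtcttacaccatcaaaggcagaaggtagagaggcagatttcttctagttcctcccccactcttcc
Gzma: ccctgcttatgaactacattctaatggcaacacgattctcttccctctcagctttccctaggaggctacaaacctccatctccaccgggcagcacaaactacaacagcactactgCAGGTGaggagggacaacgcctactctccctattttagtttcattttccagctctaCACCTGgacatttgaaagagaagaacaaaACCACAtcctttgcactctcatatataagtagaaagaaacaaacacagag
Gzmb: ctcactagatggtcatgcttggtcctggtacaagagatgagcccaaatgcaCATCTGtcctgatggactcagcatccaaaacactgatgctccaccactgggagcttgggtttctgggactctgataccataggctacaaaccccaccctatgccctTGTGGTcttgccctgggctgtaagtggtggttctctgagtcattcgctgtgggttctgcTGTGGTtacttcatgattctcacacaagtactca

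The RUNX core was found in 3 of the 7 windows, which were those of the 3 granule genes: once in Gzma, 50 bases before the start, 2 times in Gzmb, at 93 and 34 bases, and once in Nkg7, at 83 bases. It was found in 14% of all 32851 promoter windows of this length. The windows of Cd3e, Cd3d, Cd3g and Cd8a held none. The E-box was found in 5 of the 7 windows, against 44.8% of all windows, and the core TGACGT only in that of Cd3e, against 6.47%. The RefSeq start of Gzmb lies 74 bases upstream of the start in the deposited table, and that of Nkg7 65 bases downstream. These matches describe letters in the windows and were not related to binding.

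All 10 genes were lower in liver than in small intestine in the PBS groups, by limma on log2(RPKM + 0.5) over all 12 libraries. Adjusted p-values ran from 7.22e-09 for Cd3d to 0.000144 for Nkg7 (Benjamini-Hochberg, 18619 genes). Of the 10 genes, 6 reached 0.5 RPKM in fewer than 3 liver libraries and so entered the fit through the intestine, where they are high. The background is high, since 60.5% of all tested genes were called lower in liver, and the median of all genes was a log2 difference of -0.69. The widest gap was that of Gzma, at 40.3 ± 27.7 RPKM in intestine and 0.354 ± 0.0498 RPKM in liver (mean ± SD, n = 3, as for all such values below), a log2 difference of -5.32 ± 0.47 (SE). The smallest on this scale, which understates differences of low genes, was that of Nkg7, at 0.743 ± 0.236 and 0.0738 ± 0.0330 RPKM, a log2 difference of -1.10 ± 0.18. Nkg7 no longer passed after quantile scaling, with a log2 difference of -0.29 and an adjusted p of 0.227 by limma, while the other 9 did.

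As ratios of mean RPKM, intestine stood above liver in PBS by 114-fold for Gzma, 47.8-fold for Cd8a, 35.3-fold for Itgae, 31.4-fold for Gzmb, 23.6-fold for Cd3g and 20.1-fold for Cd3e. The ratio was lower for Cd3d (12.3-fold), Nkg7 (10.1-fold), Cd8b1 (8.39-fold) and Cd4 (5.65-fold). Every intestinal library lay above every liver library for each of the 10 genes, in both treatments. The share of all genes that separate in this way was not counted, so this is not shown to be particular to the 10. In PBS, 60.5% of all tested genes were called lower in liver by limma. The same ratio between the LCWE groups was smaller for each gene, from 37.3-fold for Gzma and 25.8-fold for Itgae to 4.10-fold for Nkg7. The order of levels among the genes also differed between tissues: the granzymes and Itgae led in intestinal PBS libraries by mean RPKM, while Cd4 led in liver PBS libraries.

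**Figure D1:**
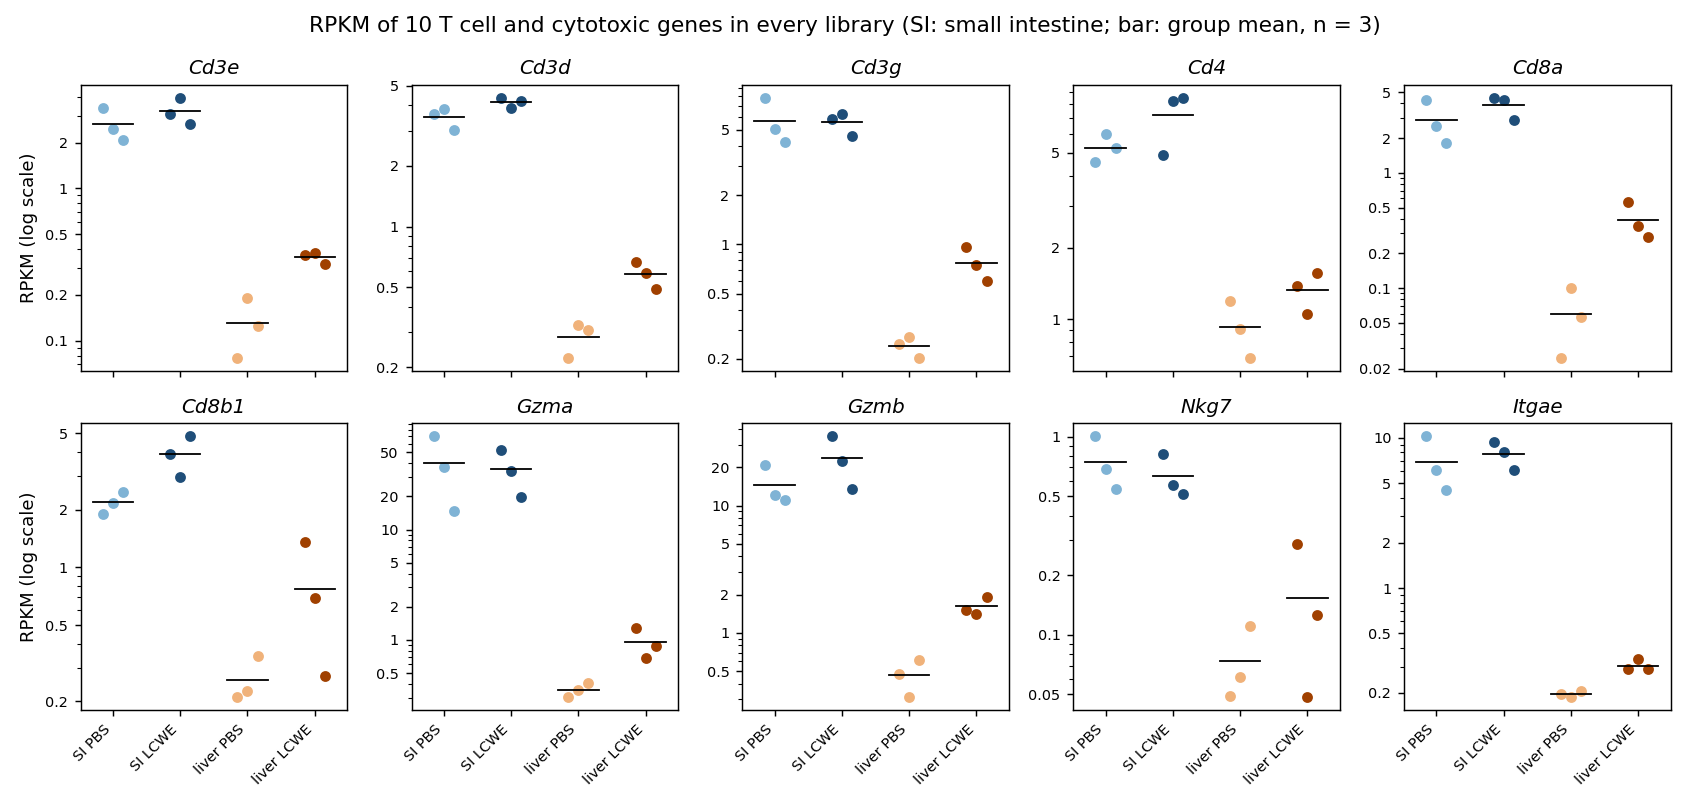
RPKM of each of the 10 genes (vertical axis, log scale, set separately for each gene) in the 4 groups, with 1 point per library and a bar at the mean of 3. All intestinal points lie above all liver points for each gene, and the share of all genes that do so was not counted. In liver the LCWE points lie above the PBS points without overlap for 7 of the 10 genes, against 19.7% of genes tested on reads.

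The liver comparison asks how these genes differed between LCWE and PBS. The means of all 10 genes were higher with LCWE, by 1.43-fold for Cd4 to 6.53-fold for Cd8a as ratios of mean RPKM. For 7 of the 10 (Cd3e, Cd3d, Cd3g, Cd8a, Gzma, Gzmb and Itgae), every LCWE library lay above every PBS library, against 19.7% of the genes that were tested on reads. Most of the genes were near the limit of detection in PBS livers, so the planned test covered only 4 of them (RPKM of at least 0.5 in at least 3 of the 6 libraries). Among these, Gzmb and Cd3g rose by limma, and Gzma and Cd4 did not pass. In this fit 3.39% of 14404 genes were called higher, and 3 of the 4 had an unadjusted p below 0.05, against 18.7% of all genes. To test the lower genes, the reads behind each RPKM value were recovered and tested with limma voom, where a gene needed at least 10 reads in at least 3 libraries. That test was chosen after the values were seen. It covered 9 of the 10 genes and called 4 (Cd3e, Cd3g, Cd8a and Gzmb) higher, against 4.22% of 17365 genes, and 7 had an unadjusted p below 0.05, against 19.9%. Cd8a passed the read minimum only through its LCWE libraries. Likewise Cd3g, Gzma and Gzmb passed the RPKM minimum only through theirs, Gzmb with 1 PBS library above 0.5 RPKM. The presence of these genes among those tested is therefore not independent of the difference.

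These calls rest on few libraries. Without any 1 of the libraries in turn, the test on RPKM called 0 or 1 of the 10 genes: Gzmb without PBS replicate 2 or 4, and none without PBS replicate 3 or LCWE replicate 1, 2 or 4. Without an LCWE library, only 2 of the genes could be tested on RPKM. Over all genes, in either direction, 4.04% were called with every library. That share was 6.64%, 0.798% and 1.66% without PBS replicate 2, 3 or 4, and 0.629%, 0.393% and 1.78% without LCWE replicate 1, 2 or 4. The test on reads called Cd3g, Cd8a and Gzmb without PBS replicate 2 or LCWE replicate 4, Gzmb alone without PBS replicate 4, and none without PBS replicate 3 or LCWE replicate 1 or 2. On reads the share over all genes was 4.81% with every library. It was 9.07%, 1.12% and 2.03% without PBS replicate 2, 3 or 4, and 1.14%, 0.873% and 2.74% without LCWE replicate 1, 2 or 4.

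**Figure D2:**
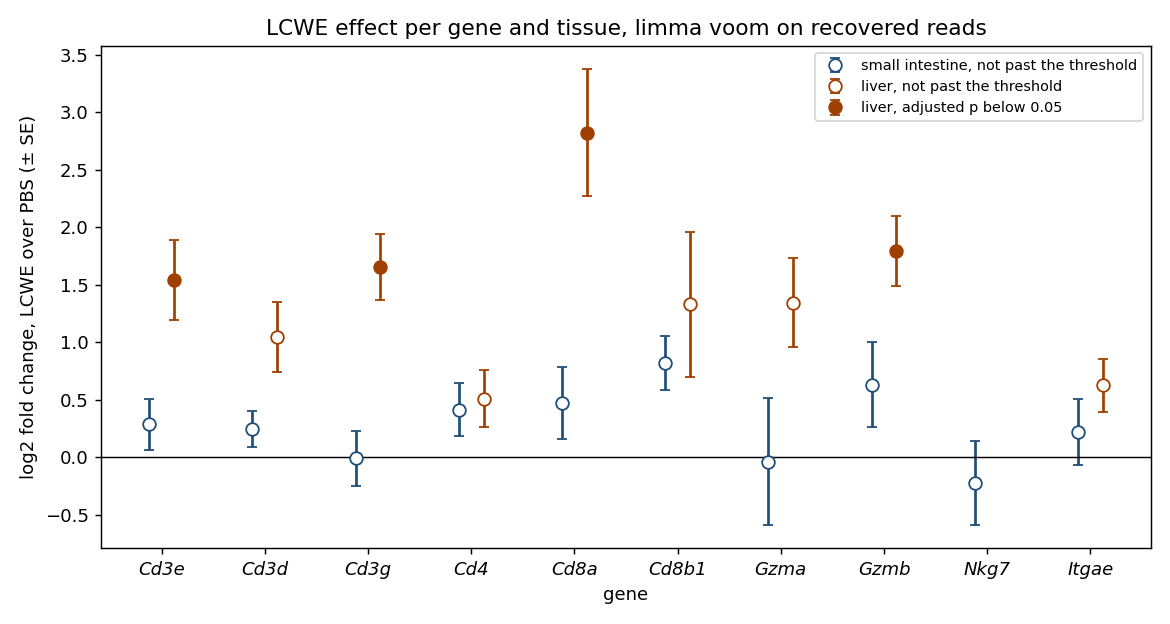
Log2 fold change of LCWE over PBS with its standard error (vertical axis) for each gene (horizontal axis), in small intestine (blue) and liver (brown), by limma voom on recovered reads. Filled points mark an adjusted p below 0.05, which in liver are Cd3e, Cd3g, Cd8a and Gzmb and in intestine none. Nkg7 had too few reads in liver to be tested.

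All 3 CD3 chains were higher in each LCWE liver than in any PBS liver, and Cd3g and Cd3e passed a test within liver. Cd3g stood at 0.247, 0.273 and 0.202 RPKM in the PBS livers (36, 32 and 26 reads) and at 0.959, 0.749 and 0.599 RPKM in the LCWE livers (119, 110 and 68 reads). The groups are well apart, with the lowest LCWE library above the highest PBS library. On reads the log2 change was 1.65 ± 0.28 (adjusted p = 0.0208, limma voom), and on log2(RPKM + 0.5), a scale that understates the change of low genes, it was 0.77 ± 0.15 (adjusted p = 0.0415, limma). The call on RPKM was lost after quantile scaling (adjusted p = 0.0981) and after median-ratio scaling (adjusted p = 0.0569), at log2 changes of 0.60 and 0.72.

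Cd3e stood at 0.0769, 0.192 and 0.125 RPKM in the PBS livers (14, 28 and 20 reads) and at 0.368, 0.376 and 0.317 RPKM in the LCWE livers (57, 69 and 45 reads). It varied more among the PBS than among the LCWE libraries, and the groups did not overlap. The change on reads was 1.54 ± 0.35 on the log2 scale (adjusted p = 0.0478, limma voom), just past the threshold, and leaving out any 1 library took it to an adjusted p between 0.0618 and 0.177. Part of Cd3e, 135 exon bases, also belongs to a gene on the other strand, and without a stated strand protocol the reads there could come from either gene.

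Cd3d stood at 0.222, 0.323 and 0.308 RPKM in PBS livers (18, 21 and 22 reads) and at 0.668, 0.589 and 0.492 RPKM with LCWE livers (46, 48 and 31 reads). The groups were apart here too, but the change did not pass (log2 1.05 ± 0.30 on reads, adjusted p = 0.101, limma voom).

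In the small intestine the same chains were at higher levels and showed no called difference. Cd3e stood at 3.36, 2.45 and 2.10 RPKM with PBS and 3.09, 3.93 and 2.66 RPKM with LCWE. Cd3g stood at 7.83, 5.04 and 4.19 RPKM with PBS and 5.84, 6.28 and 4.59 RPKM with LCWE. Both genes overlapped between the groups. Cd3d was at 3.62, 3.82 and 3.02 RPKM with PBS and 4.35, 3.88 and 4.18 RPKM with LCWE, with no overlap but a narrow gap. The log2 changes were 0.26 ± 0.19 for Cd3e, 0.22 ± 0.12 for Cd3d and 0.00 ± 0.23 for Cd3g, with adjusted p-values of 0.551, 0.458 and 0.993 by limma.

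Of the coreceptors, Cd8a had the largest ratio between the liver groups of all 10 genes, from the lowest base. It stood at 0.0246, 0.0998 and 0.0559 RPKM in PBS livers, which is 4, 13 and 8 reads, and at 0.558, 0.343 and 0.277 RPKM with LCWE livers, which is 77, 56 and 35 reads. All LCWE libraries were above all PBS libraries. The log2 change on reads was 2.82 ± 0.55 (adjusted p = 0.0328, limma voom), and the adjusted p lay between 0.0390 and 0.0989 when 1 library was left out.

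Cd8b1, the beta chain, behaved less evenly. It stood at 0.211, 0.226 and 0.343 RPKM in PBS livers (14, 12 and 20 reads) and at 1.35, 0.690 and 0.272 RPKM with LCWE livers (76, 46 and 14 reads). LCWE replicate 4 lay within the PBS range while replicate 1 was above every other liver library, and the change did not pass (log2 1.33 ± 0.63, adjusted p = 0.296, limma voom). Cd4 stood at 1.19, 0.914 and 0.687 RPKM in PBS livers and at 1.38, 1.05 and 1.56 RPKM with LCWE livers, so the groups overlapped. Its log2 change was 0.36 ± 0.18 on log2(RPKM + 0.5) (adjusted p = 0.349, limma). Cd4 was the only one of the 10 genes above 0.5 RPKM in every PBS liver, at a mean of 0.930 ± 0.251 RPKM against 0.131 ± 0.0576 RPKM for Cd3e.

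In the intestine, Cd8b1 had the smallest p-value of the 10 genes. It stood at 1.91, 2.17 and 2.47 RPKM with PBS and 3.90, 2.95 and 4.82 RPKM with LCWE, and each LCWE library was above each PBS library. The log2 change was 0.69 ± 0.18 with an unadjusted p of 0.00659 and an adjusted p of 0.248 by limma, so it did not pass. Cd8a stood at 4.27, 2.53 and 1.82 RPKM with PBS and 4.47, 4.29 and 2.87 RPKM with LCWE, and Cd4 at 4.57, 5.98 and 5.21 against 4.88, 8.22 and 8.49 RPKM. Both overlapped between groups, with log2 changes of 0.42 ± 0.29 for Cd8a and 0.39 ± 0.22 for Cd4 (adjusted p = 0.526 and 0.472, limma).

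The ratio of Cd8a to Cd8b1 differed between libraries of the same intestinal group. It was 2.24, 1.17 and 0.738 in the PBS libraries and 1.14, 1.45 and 0.595 in the LCWE libraries. In each group replicate 4 was the lowest and the only one below 1. In liver the ratio was 0.117, 0.442 and 0.163 in PBS and 0.413, 0.496 and 1.02 in LCWE. The ratio of Cd8a to Cd4 in liver was 0.0207, 0.109 and 0.0814 in PBS and 0.405, 0.327 and 0.177 in LCWE, with no overlap. In the intestine that ratio overlapped, at 0.935, 0.424 and 0.350 in PBS and 0.915, 0.522 and 0.338 in LCWE. These ratios are descriptions without a test, and those of PBS livers rest on as few as 4 reads of Cd8a.

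Among the granule genes, Gzmb, a serine protease that triggers apoptosis in target cells, had the smallest p-value in liver by both tests. It stood at 0.474, 0.315 and 0.610 RPKM in PBS livers (30, 16 and 34 reads) and at 1.52, 1.41 and 1.93 RPKM with LCWE livers (82, 90 and 95 reads). All LCWE libraries lay far above the highest PBS library. The log2 change was 1.14 ± 0.17 on log2(RPKM + 0.5) (adjusted p = 0.0187, limma) and 1.79 ± 0.30 on reads (adjusted p = 0.0200, limma voom). With 1 library left out, the adjusted p on RPKM lay between 0.0286 and 0.0876.

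Gzma, the granzyme with trypsin-like specificity, stood at 0.306, 0.350 and 0.405 RPKM in PBS livers (12, 11 and 14 reads) and at 1.29, 0.685 and 0.885 RPKM with LCWE livers (43, 27 and 27 reads). Its groups did not overlap, yet it did not pass on RPKM (log2 0.75 ± 0.18, adjusted p = 0.0697, limma) or on reads (log2 1.34 ± 0.39, adjusted p = 0.101, limma voom). Nkg7, a membrane protein of cytotoxic granules, had 2, 2 and 4 reads in PBS livers and 10, 2 and 4 reads in LCWE livers. At this depth no difference of Nkg7 was detectable in liver.

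In the intestine the granzymes were the highest of the 10 genes, and Gzma was the most variable. Gzma stood at 69.7, 36.5 and 14.6 RPKM with PBS and 52.9, 34.0 and 19.9 RPKM with LCWE. The 2 groups covered nearly the same range, and the spread within each was far larger than the difference of the means (log2 change -0.02 ± 0.59, adjusted p = 0.987, limma). Gzmb stood at 20.7, 12.2 and 10.96 RPKM with PBS and 34.9, 22.3 and 13.4 RPKM with LCWE, with overlap (log2 change 0.62 ± 0.38, adjusted p = 0.494, limma). Nkg7 stood at 1.003, 0.683 and 0.542 RPKM with PBS and 0.815, 0.568 and 0.517 RPKM with LCWE, which is at most 35 reads in a library (log2 change -0.13 ± 0.19, adjusted p = 0.754, limma).

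Gzma exceeded Gzmb in every intestinal library. The ratio of Gzma to Gzmb was 3.36, 3.005 and 1.33 in PBS and 1.52, 1.52 and 1.49 in LCWE. The LCWE libraries agreed closely in this ratio although their Gzma levels differed, whereas the PBS libraries spread on both sides of them. In liver the ratio was 0.646, 1.11 and 0.665 in PBS and 0.847, 0.485 and 0.459 in LCWE, so Gzmb was the higher granzyme in all liver libraries but PBS replicate 3. The ratio of Gzmb to Cd3e in liver was 6.17, 1.64 and 4.89 in PBS and 4.14, 3.75 and 6.07 in LCWE, with full overlap. In the intestine it was 6.17, 4.96 and 5.23 in PBS and 11.3, 5.68 and 5.03 in LCWE, where LCWE replicate 1 stood apart.

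Itgae encodes the alpha E subunit of the integrin that binds E-cadherin. In liver it stood at 0.196, 0.189 and 0.205 RPKM in PBS (40, 31 and 37 reads) and at 0.288, 0.335 and 0.289 RPKM with LCWE (50, 69 and 46 reads). The libraries of each group were close to each other and the groups did not overlap, but the change was small and did not pass (log2 0.63 ± 0.23 on reads, adjusted p = 0.183, limma voom). In the intestine it stood at 10.2, 6.10 and 4.50 RPKM with PBS and 9.37, 8.004 and 6.14 RPKM with LCWE, with overlap (log2 change 0.22 ± 0.29, adjusted p = 0.718, limma). The ratio of Itgae to Cd3e in liver was 2.54, 0.986 and 1.65 in PBS and 0.781, 0.891 and 0.910 in LCWE, so each LCWE liver was below each PBS liver. In the intestine the ratio was 3.04, 2.49 and 2.15 in PBS and 3.03, 2.04 and 2.31 in LCWE.

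Over the whole intestinal comparison, 0 of the 10 genes passed, as did 0% of 17510 genes by limma. The number over all genes moved with the fit while that of the 10 remained 0: it was 213 (1.14%) in a fit over the 4 groups together, 70 (0.405%) without LCWE replicate 1 and 4 without LCWE replicate 2. At an unadjusted p below 0.05 there was 1 of the 10, Cd8b1, against 12.6% of all genes, and the test on reads also called none and had 1 at that level, against 12%. The mean was higher with LCWE for 7 of the 10. LCWE lay above PBS without overlap for 2 of the 10 (Cd3d and Cd8b1), against 13.2% of all tested genes.

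The spread between intestinal libraries of the same group had a pattern across the genes. The highest PBS library was replicate 2 for 7 of the 10 genes and the lowest was replicate 4 for 8. The highest LCWE library was replicate 1 for 6 and the lowest was replicate 4 for 7. Cd8b1 and Cd4 went another way, with their lowest PBS value in replicate 2 and their highest LCWE value in replicate 4. The enterocyte marker Fabp2 was also lowest in replicate 4 of each group, and the summed RPKM of 10 enterocyte markers ran from 12732 to 22923 in PBS and from 4097 to 10199 in LCWE. In these libraries the enterocyte list had a median log2 change of -1.11 on reads with 0 of 10 genes called. The part of this difference in the values of the lymphocyte genes was not tested.

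**Figure D3:**
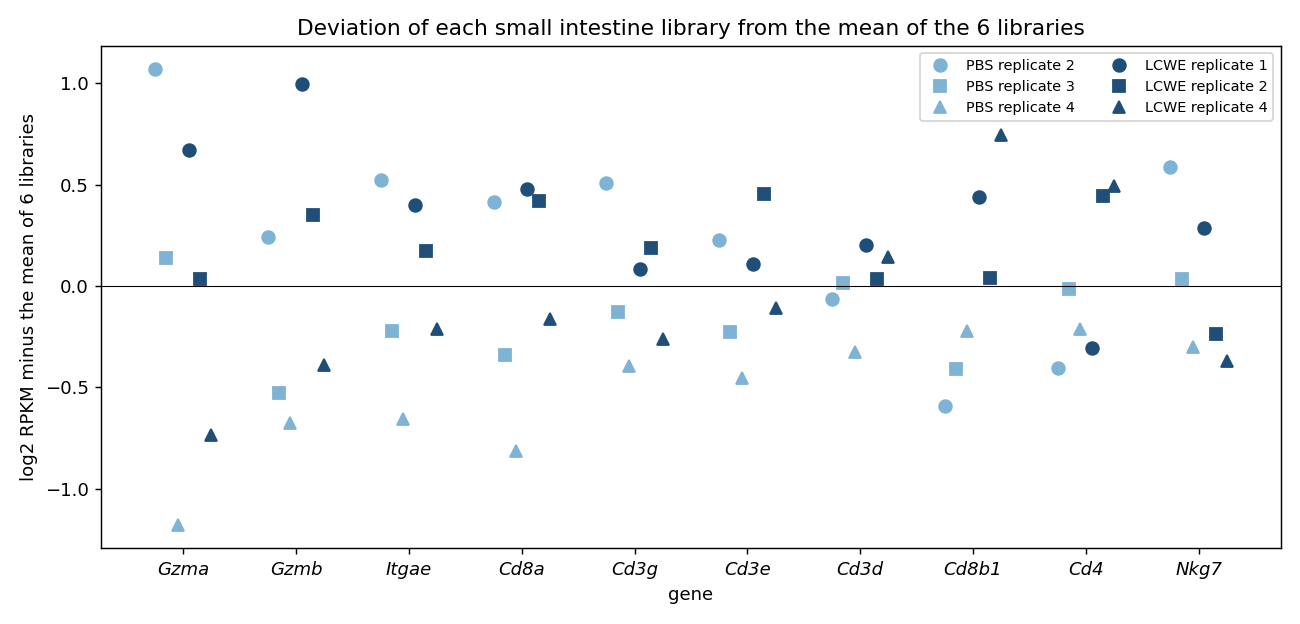
Log2 RPKM of each gene in each small intestine library minus the mean of the 6 libraries (vertical axis), for the 10 genes (horizontal axis), with PBS libraries in light and LCWE libraries in dark blue and a symbol for each library. PBS replicate 2 lies at or near the top for Gzma, Itgae and Cd3g and at the bottom for Cd8b1 and Cd4, and the spread is widest for Gzma, from 69.7 to 14.6 RPKM.

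Whether the LCWE difference itself differed between tissues was tested as the liver change minus the intestinal change over all 12 libraries. None of the 10 genes passed by limma, against 0.736% of 18619 genes. Cd3g had the smallest p-value, with a log2 difference of 0.76 ± 0.28 (unadjusted p = 0.0207, adjusted p = 0.274), and it was the only 1 of the 10 with an unadjusted p below 0.05, against 12.8% of all genes. On reads, also none passed (0.757% of 20884 genes did), and 4 had an unadjusted p below 0.05 (Cd3e, Cd3d, Cd3g and Cd8a), against 12.5%. For Gzmb the difference was 0.52 ± 0.44 on log2(RPKM + 0.5) (adjusted p = 0.691, limma). The calls in liver and their absence in intestine are therefore not shown to differ.

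Other genes of the same pathways were read from 7 lists. In liver, of 20 genes of T cell receptor signalling, 18 had reads enough for a test, all 18 were higher with LCWE and 7 rose, with a median log2 change of 1.30 over those tested, against 0.11 over all genes tested. Over all genes tested on reads, 4.22% rose, which is the share to set beside the count of each list. Some of the tested genes, such as Cd5, reached the read minimum only through their LCWE libraries, so the medians and counts describe the tested genes only. Lck, the kinase that starts the signal at the coreceptors, rose from 0.314 ± 0.0649 to 0.969 ± 0.103 RPKM (adjusted p = 0.0207, limma). The adaptors Lcp2 (2.32 ± 0.203 to 6.02 ± 0.483 RPKM, adjusted p = 0.00563, limma) and Fyb (5.45 ± 1.14 to 15.6 ± 2.56 RPKM, adjusted p = 0.0129, limma) had the largest levels of the list and are also known from myeloid cells. The surface receptors Cd5 and Cd6 and the exchange factor Rasgrp1 were also among those that rose on reads, and Rasgrp1 also on RPKM. Lck and Rasgrp1 reached the RPKM minimum only through their LCWE libraries. Their presence among the genes tested on RPKM is therefore not independent of the difference. Zap70, the kinase recruited by the CD3 chains, stood at 0.830 ± 0.101 in PBS and 0.989 ± 0.1698 RPKM with LCWE and did not pass (adjusted p = 0.592, limma).

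Of 11 genes of receptor chains and CD3, 8 could be tested in liver, 8 were higher and 2 rose, which are the 2 CD3 genes above, with a median of 0.90. Trac, the constant part of the alpha chain, stood at 0.410 ± 0.131 and 0.754 ± 0.0564 RPKM (adjusted p = 0.212 on reads, limma voom). Of 14 genes of cytotoxic granules and death ligands, 9 could be tested on reads and only Gzmb rose, with 8 higher and a median of 0.65. Ctsw, a protease of cytotoxic lymphocytes, went from 0.237 ± 0.129 to 0.824 ± 0.141 RPKM and passed on RPKM (adjusted p = 0.0498, limma) but not on reads (adjusted p = 0.0637, limma voom). It too reached the RPKM minimum only through its LCWE libraries. Gzmk had no read in any PBS liver.

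Of 20 genes of intraepithelial lymphocytes and tissue residency, 16 could be tested in liver on reads, all 16 were higher and 4 rose, with a median of 1.15. These were Itgb7, the partner chain of Itgae, the signalling adaptors Tyrobp and Fcer1g, and Ahr, a ligand-activated transcription factor. Tyrobp (3.81 ± 0.438 to 8.80 ± 1.37 RPKM, adjusted p = 0.0142, limma) and Fcer1g (2.47 ± 0.329 to 5.24 ± 0.813 RPKM, adjusted p = 0.0224, limma) are also adaptors of natural killer and myeloid cells. Itgb7 stood at 0.658 ± 0.0539 in PBS and 1.63 ± 0.484 RPKM with LCWE and passed on reads but not on RPKM (adjusted p = 0.0635, limma). Of 10 epithelial partners of these lymphocytes, 9 were tested on reads and none rose or fell, by limma voom or limma. E-cadherin, encoded by Cdh1, stood at 12.6 ± 0.697 and 10.5 ± 0.698 RPKM.

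Among 16 helper and regulatory T cell genes, 11 could be tested on reads, with 7 higher, 1 risen and 1 fallen. Tnfrsf18, a receptor of regulatory and activated T cells, rose from 0.725 ± 0.104 to 1.56 ± 0.292 RPKM (adjusted p = 0.0480, limma). Among 10 genes of naive and recirculating T cells, 7 could be tested, 5 were higher and 2 rose, among them Il7r, a cytokine receptor chain (0.0846 ± 0.0276 to 0.518 ± 0.0162 RPKM). S1pr1, the receptor for lymphocyte egress that is also abundant in endothelium, stood at 11.9 ± 2.57 in PBS and 8.70 ± 2.67 RPKM in LCWE (adjusted p = 0.397, limma). The summed RPKM of this list overlapped between the liver groups, from 13.4 to 17.9 in PBS and from 10.4 to 15.8 in LCWE.

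In the intestine, none of the genes of these 7 lists rose or fell by limma on RPKM or by limma voom on reads. The median log2 change on reads was 0.25 for the receptor chains, 0.38 for receptor signalling with 19 of 20 tested genes higher, and 0.11 for granule genes. It was 0.11 for genes of intraepithelial lymphocytes and -0.19 for their epithelial partners, against 0.13 over all tested genes.

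Markers of other cell types moved in liver beside these genes. The summed RPKM of 10 macrophage markers ran from 121 to 148 in PBS livers and from 276 to 363 in LCWE livers, and 8 of the 10 rose on reads. Of 10 dendritic cell markers, 8 could be tested, all 8 were higher and 3 rose (Itgax, Xcr1 and Clec9a). The sum of the list overlapped, at 92.5 to 136 in PBS and 113 to 116 in LCWE, but nearly all of it was Snx22, and the other 9 summed to between 3.34 and 3.71 RPKM in PBS and between 6.85 and 7.38 in LCWE. Leaving out Snx22 was not planned, and no other list was treated this way. The summed RPKM of 14 natural killer cell markers ran from 0.883 to 1.24 in PBS and from 1.96 to 2.37 in LCWE. Only 4 of them could be tested and 1, Klrd1, rose, while Klra7 had no read in any PBS liver. The 10 B cell markers summed to between 1.35 and 1.70 RPKM in PBS and between 1.502 and 1.80 in LCWE, with 0 of 9 tested called by limma voom. The 10 genes described here summed to between 2.94 and 3.05 RPKM in PBS livers and between 6.28 and 8.67 in LCWE livers. The part of these other cells in the change of Cd4, Cd8a, Itgae and the granule genes was not tested.

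**Figure D4:**
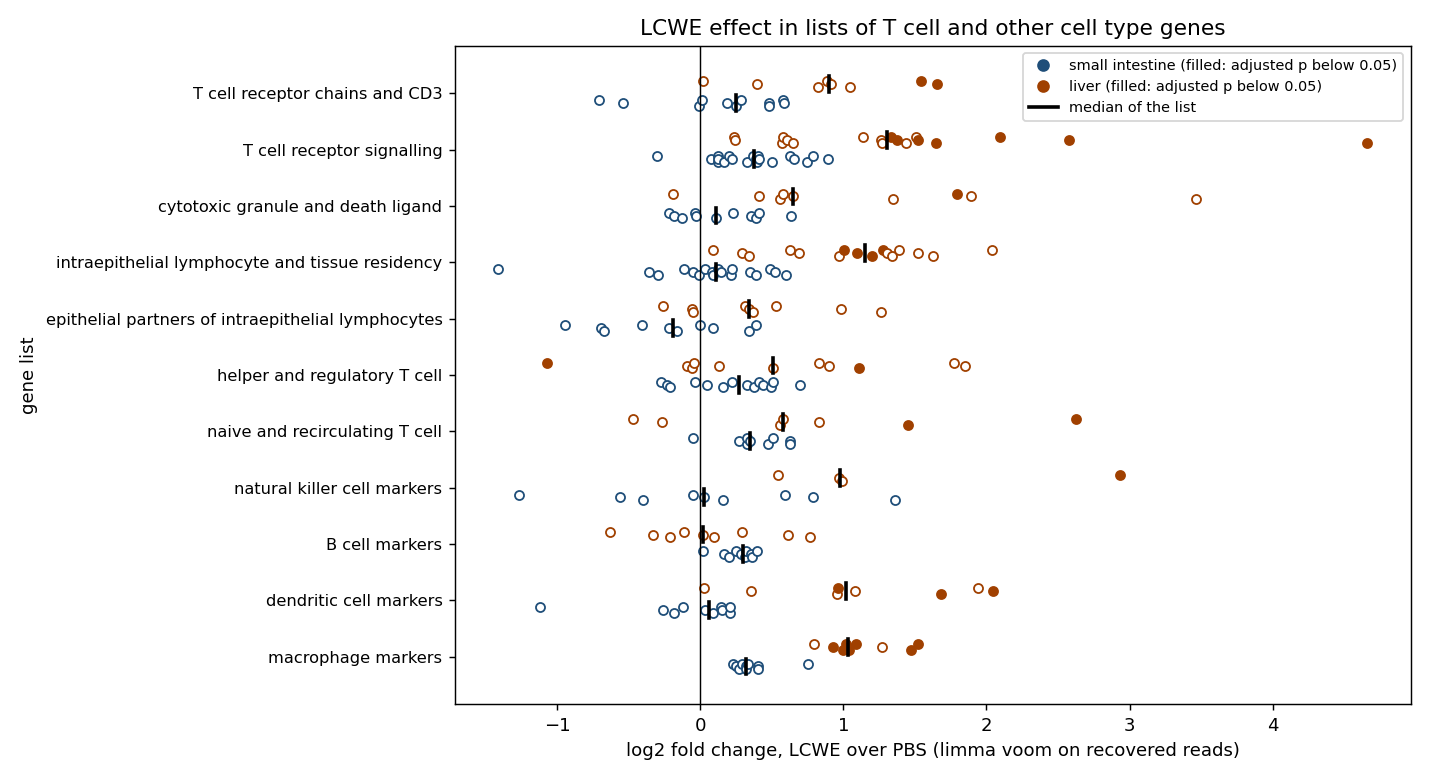
Log2 fold change of LCWE over PBS (horizontal axis, limma voom on reads) for the tested genes of 7 pathway lists and 4 lists of other cell types (vertical axis), in small intestine (blue) and liver (brown), with a black bar at the median and filled points for an adjusted p below 0.05. In liver the medians of the receptor signalling, residency, natural killer, dendritic cell and macrophage lists lie between 0.98 and 1.30 and that of B cell markers at 0.02, and no intestinal point is filled.

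Genes with the most similar pattern were sought by Pearson's r over the 12 libraries, after removing the mean of each tissue, among 18609 genes. The libraries share tissue and treatment, so r is a description. For the mean of the CD3 chains the 6 highest included Apol7e (0.970), Pgm3 (0.952), Gm11131 (0.951), Gm28177 (0.949) and Gm15821 (0.947). For the mean of Gzma and Gzmb they were Cd7 (0.934), Irgm2 (0.924), Scfd1 (0.918), Sectm1a (0.918), Trgv2 (0.914) and Gbp6 (0.909). Cd7, a surface protein of T and natural killer cells, stood at 6.77, 4.69 and 2.33 RPKM in intestinal PBS libraries and at 5.61, 5.24 and 3.60 in intestinal LCWE libraries. In liver it stood at 0.158, 0.197 and 0.157 in PBS and at 0.651, 0.511 and 0.483 in LCWE. As a gene selected for its likeness to the granzymes, it was, like them, highest in PBS replicate 2 and LCWE replicate 1 of the intestine.

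The authors' deposited table of liver differences lists 797 genes, 625 of them with a false discovery rate (FDR) below 0.05. It lists 6 of the 10 genes, all higher with LCWE, and 5 of these have an FDR below 0.05. In the authors' deposited table the log2 fold changes are 2.87 for Cd8a (FDR 0.00662), 1.54 for Cd3g (FDR 0.00637), 1.95 for Gzmb (FDR 0.0116), 1.43 for Cd3e (FDR 0.0193), 1.09 for Cd3d (FDR 0.0423) and 1.69 for Cd8b1 (FDR 0.0860). Cd3d is thus below 0.05 in that table and above it here on reads. In a fit over the 4 groups together, Cd3d was the only 1 of the 10 genes called in liver, and Cd3g and Gzmb were not. Cd3d entered that fit through the intestine, where it is high. The authors' deposited table for the intestine lists 220 genes, none with an FDR below 0.05 (the lowest is 0.469), and none of the 10.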

How the data were processed

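Per the labels' protocols, total RNA came from a TRIzol extraction with DNase I digestion and a standard Illumina preparation, with no strandedness stated. The authors deposited RPKM per gene and library. Per the submitters' processing notes, the tools were edgeR 3.12.1, Subread 1.5.1, featureCounts and Trimmomatic 0.36 on mm10, in no stated order, and no aligner is named as such. Of 16 library columns, 12 matched the samples and 4 matched none and were not used. The authors also deposited p-values with FDR and log2 fold changes, which were only copied.

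The 10 genes, the lists of related genes and the markers were chosen with earlier results of these data known. A gene entered a fit if 3 or more of its libraries reached RPKM 0.5. The test was limma 3.58.1 (R 4.3.3) on log2(RPKM + 0.5), by lmFit and eBayes with trend, two-sided, with Benjamini-Hochberg adjustment over the whole table and calls at adjusted p below 0.05. Intestine and liver had a fit each, and tissue comparisons used 1 fit over 4 groups. Whole reads (tolerance 0.001) came back from 100% of RPKM values on multiplying by length, so limma voom was also run on reads, with at least 10 reads in at least 3 libraries (chosen after seeing the data). Unless RPKM is named, calls in lists are from voom. Named list genes are the 3 with the smallest p past the threshold per list and tissue; others were picked after seeing their values. Likeness selects 6 genes per pattern. Some genes that these rules select are not reported here. Alternatives were other pseudocounts, filters and scalings, voom, a joint fit of the 4 groups, a replicate block and leaving out each library. The fits were tested on simulated data. No exact permutation test was run, as 0.1 is the smallest two-sided p for 3 against 3 libraries.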

Additional observations from a re-analysis of the deposited data

Results flagged for a closer look

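Tyrobp, an adaptor of the intraepithelial lymphocyte and residency list that natural killer and myeloid cells also use, differed in its LCWE change between the tissues: the liver change minus the intestinal change was 1.36 ± 0.20 (SE) on the log2(RPKM + 0.5) scale, with an adjusted p of 0.0188 by limma over all 12 libraries. In liver it stood at 3.66, 3.47 and 4.31 RPKM with PBS and 7.47, 10.2 and 8.72 RPKM with LCWE. In the intestine it stood at 5.77, 5.52 and 5.05 RPKM with PBS and 3.72, 5.06 and 4.74 RPKM with LCWE.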

How the results depend on the processing

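Of the 10 genes, 2 were called in liver on RPKM. The number was 0 with no filter and with the replicate block, 1 with a filter at RPKM 1, with quantile scaling, with median-ratio scaling and with 1 fit over the 4 groups (Cd3d), and 4 by voom on at least 10 reads (a test chosen after seeing the data). It lay between 0 and 1 when each library was left out in turn. By voom on at least 10 reads, 4 were called, 0 with the replicate block, and between 0 and 3 with each library left out. The share called over all liver genes, in either direction, moved too. On RPKM it was 4.04% in the main fit, 1.18% with no filter, 0.167% with the replicate block and 4.36% with a filter at RPKM 1. With quantile scaling, median-ratio scaling and 1 fit over the 4 groups it was 3.23%, 3.33% and 4.82%. By voom on at least 10 reads it was 4.81%, and 0.357% with the replicate block. Whether the replicate numbers pair the samples is not known, since the labels give the number no meaning. Correlations of same-numbered deviations between the tissues ran from -0.084 to 0.115. Those of differently numbered samples of the same treatment ran from -0.102 to 0.0692. Such values cannot decide it, because samples of the same animal need not deviate alike in 2 tissues. In intestine and for the difference between tissues, 0 of the 10 were called under every alternative run. The intestinal change of Cd3g, near 0, turned negative with quantile scaling (-0.0744), median-ratio scaling (-0.10), the replicate block (-0.0898), voom on recovered reads (-0.00787) and voom on at least 10 reads (-0.00779), and ran from -0.17 to 0.24 with 1 library left out. That of Gzma ran from -0.61 to 0.50, Nkg7 from -0.24 to 0.0205 and Itgae from -0.0314 to 0.52. Scaling moved the median of all genes by up to 0.1 within a tissue. Between the tissues it moved the median of PBS liver against PBS intestine from -0.69 to -0.08 with median-ratio and 0.01 with quantile scaling. The cause of these shifts was not tested. Depth limits Nkg7 and Cd8a most, with 2 to 4 and 4 to 13 reads in PBS livers.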

Other observations

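Some T cell genes in the liver libraries did not follow the CD3 chains. Cd247, the zeta chain of the receptor complex, stood at 0.525, 0.864 and 0.973 RPKM in PBS livers and at 0.860, 0.685 and 0.762 RPKM with LCWE livers, above each CD3 chain in PBS, and its log2 change was -0.01 (adjusted p = 0.987, limma). Of its 5329 exon bases, 3007 are shared with Pou2f1 on the other strand and 206 with Gm16565 on the same strand. Foxp3, the transcription factor of regulatory T cells, stood at 1.93, 1.43 and 1.46 RPKM in PBS livers and at 1.41, 1.67 and 1.52 RPKM with LCWE livers, also above each CD3 chain in PBS. Its exons share 590 of 3989 bases with Ccdc22 and 373 with Gm36995, both on the other strand, and 267 with Ppp1r3fos on the same strand. Both genes were picked after seeing their values.

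Prf1, which encodes the pore-forming protein of cytotoxic granules, had 12, 0 and 0 reads in PBS livers and 10, 22 and 16 reads in LCWE livers, and did not pass (adjusted p = 0.102, limma voom). In the intestine it had between 46 and 84 reads.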
